A study of Mus musculus with 9 samples.

Results

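Chemokine receptors are proteins of the cell membrane that let white blood cells follow gradients of chemokines, small secreted proteins, out of the blood and into inflamed tissue. They couple to inhibitory G proteins and, through these, to the actin machinery of a moving cell. In the brain after a stroke, monocytes, neutrophils and lymphocytes that bear such receptors enter the injured tissue, and resident microglia express some of the same genes. The 6 genes described here are Ccr1 and Ccr2, the receptors of inflammatory CC chemokines on monocytes and other myeloid cells; Ccr7, which guides dendritic cells and T cells to lymphoid tissue; Ccrl2, an atypical receptor that binds chemerin without classical signalling; Cxcr3, a receptor of activated T cells and natural killer cells; and Cxcr4, the receptor of Cxcl12 on most leukocytes and on stem and endothelial cells.

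The genes were chosen by name, and each was found through the RefSeq accession of its array probe. Each of the 6 genes had 1 probe with 1 spot per array, and all 6 passed the filter on dim probes, among 30837 genes tested. The name under which they were chosen places them on leukocytes that enter the brain. RNA came from brain tissue and not from sorted cells, so a probe's signal is a sum over all cells present, and more cells of a type cannot be told apart from more RNA per cell.

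Brain RNA of adult male C57BL/6 mice aged 50 to 53 days was measured on 9 arrays, 3 per group, and the part of the brain is not stated. The sham mice underwent surgery without occlusion, and the labels state no injection for them. In the MCAO group the middle cerebral artery was occluded for 90 min, and 1 µl of phosphate-buffered saline went into the right lateral ventricle 3 h after reperfusion. The VEGF group had the same occlusion and, at the same time and place, 1 µl of human VEGF-A165, a growth factor of blood vessels made as a recombinant protein, at 10 µg/ml. All brains were taken 24 h after reperfusion. MCAO against sham asks what occlusion with vehicle changed, and VEGF against MCAO asks what the growth factor changed after the same occlusion, which is the question of the series title.

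The scanner software marked 73.0% to 81.8% of the spots per array, controls aside, as well above background. MCAO array 1 and VEGF array 1 stood apart from the other ischaemic arrays: their scores on the first principal component, which held 57.0% of the variance, were 130 and 141, against -8.17 to 15.9 for the other 4 ischaemic arrays and -104 to -90.1 for sham. They were also the dimmest arrays, with 78.7% and 73.0% of spots well above background. Their 75th percentiles of signal, by which all levels were divided, were 797 and 723. Those of the other arrays were 1250 to 1770. What this adds to the pair's scaled levels was not tested. All 10 neuron and all 8 astrocyte markers were bright enough to be tested, as the tissue label implies. Neuron markers had a median of -2.43 log2 units against sham on both arrays and of -0.69 to -0.37 on the other ischaemic arrays. Endothelial markers had medians of 1.90 and 2.56, against 0.30 to 0.65. Results are therefore given with and without this pair of arrays. All sham arrays lay on one slide and all MCAO and VEGF arrays on another, so that slide and occlusion cannot be told apart, whereas VEGF and MCAO were compared within a slide. That comparison is still not uniform: MCAO array 1 alone was scanned on another day and without the scanner software's correction for a spatial trend.

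In both ischaemic groups Ccr1 and Ccr2 were higher than in sham and passed the test. Ccr7 and Cxcr4 were about 2 log2 units higher in both groups without passing, and Ccrl2 and Cxcr3 differed less. None of the 6 passed between VEGF and MCAO. The following paragraphs take the receptors by role, each with its level on every array as a percentage of that array's 75th percentile of signal, then the log2 difference ± its standard error from limma (n = 3 arrays per group) with p-values adjusted over all 30837 genes.

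**Figure D1:**
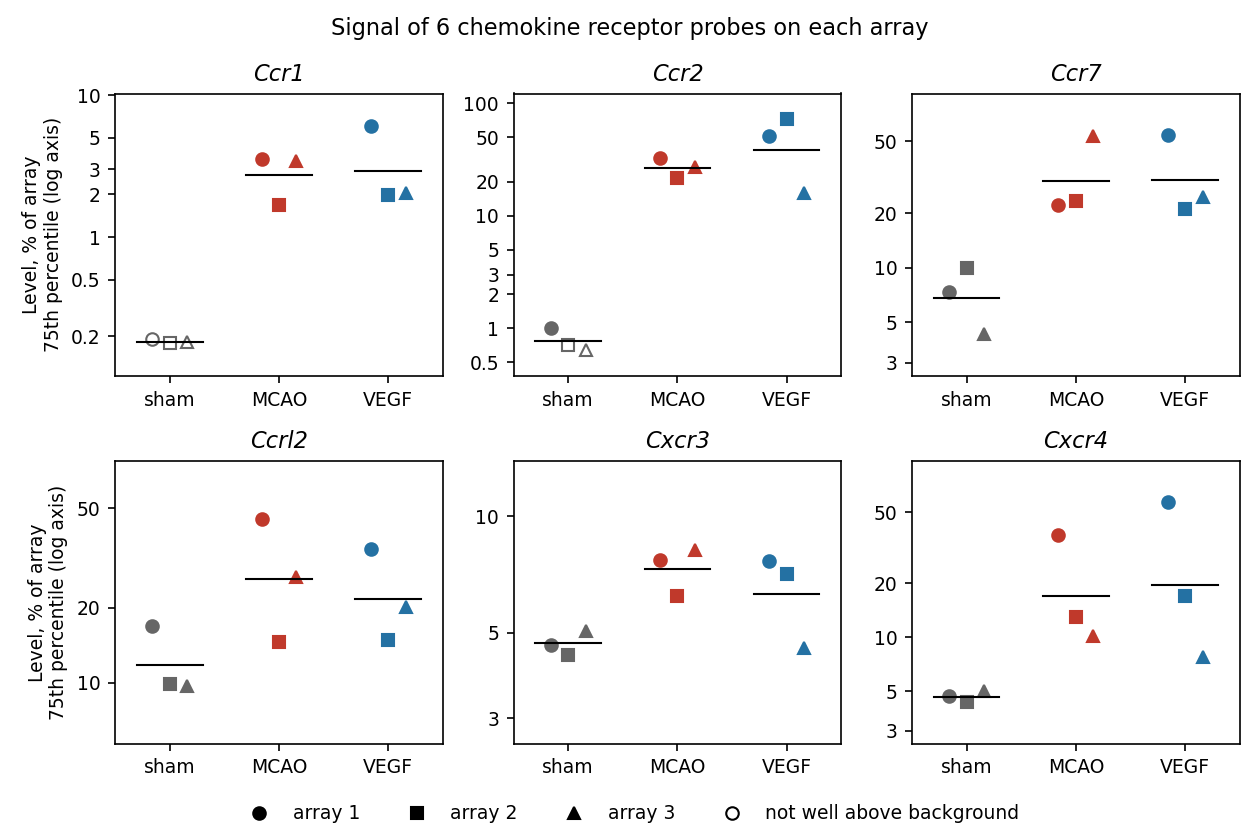
Level of each receptor's probe on each of the 9 arrays, as a percentage of the array's 75th percentile on a log axis; open symbols were not well above background, symbol shapes mark the array number and lines are geometric means of 3 arrays. Ccr1 and Ccr2 lie at 1.00% or lower on all sham arrays and at 1.68% or higher on all ischaemic arrays, while the Ccrl2 groups overlap.

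Ccr2 binds Ccl2, Ccl7 and Ccl12 and brings inflammatory monocytes out of the bone marrow and into tissue. Its level was 1.00%, 0.706% and 0.639% of the 75th percentile on sham arrays 1 to 3, and only the first of these was well above background. In MCAO it was 32.9%, 21.5% and 27.2%, and in VEGF 50.6%, 71.6% and 15.8%, all well above background. No ischaemic array overlapped with sham, and the VEGF arrays spread on both sides of the MCAO arrays. In MCAO the gene was 5.13 ± 0.51 log2 units higher than in sham (limma, adjusted p = 0.00215). In VEGF it was 5.65 ± 0.51 log2 units higher (limma, adjusted p = 0.00145), and 6.29 without VEGF array 3, the lowest of that group. With the array pair that stood apart left out, the differences were 4.98 (adjusted p = 0.00446) and 5.46 (adjusted p = 0.00441) in limma. The size depends on the background correction, since the sham signal is near background: normexp with an offset of 50 gave 2.55 and 3.07, which also passed limma's test, with adjusted p of 0.022 and 0.0111.

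Ccr1 is a receptor of Ccl3, Ccl5, Ccl7 and, in mice, of Ccl6 and Ccl9, and is carried by monocytes, macrophages and neutrophils. No sham array had it well above background, and there the deposited signal was 0.192%, 0.178% and 0.181% of the 75th percentile. In MCAO it was 3.56%, 1.68% and 3.42%, and in VEGF 6.06%, 1.99% and 2.03%, all well above background. The probe thus went from not measurable in sham to a dim but measurable signal on every ischaemic array. Measured against the dimmest signal that counts as well above background on the sham arrays, Ccr1 was 3.76-fold higher in MCAO and 3.99-fold higher in VEGF. These are no strict lower bounds, since a probe above that signal can still be not well above background. Ccr2 on sham array 2, at 0.706% against a dimmest signal of 0.627%, was such a case. The fitted differences, which take the sham values as deposited, were 3.90 ± 0.46 and 3.98 ± 0.46 log2 units, with adjusted p of 0.00502 and 0.00499 in limma. Without the array pair they were 3.71 (adjusted p = 0.00123) and 3.45 (adjusted p = 0.00187). Normexp background correction ended both calls of Ccr1, with differences of 0.65 (limma, adjusted p = 0.342) and 0.84 (limma, adjusted p = 0.243).

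For Ccr1 the RefSeq window of 250 bases upstream of the transcript start is shown here with those of Ccrl2 and Cxcr3, to set the receptor that was called beside both receptors whose windows held a searched motif. Windows were listed for 5 of the 6 genes, and that of Ccr2 overlaps a longer transcript model and is not shown. Searched on both strands were the letters of AP-1 (TGANTCA), PU.1 (GAGGAAGT), C/EBP (TTGCNNAA), an interferon response element (GAAANN followed by GAAA), NF-kB (GGGNN followed by TTNCC), a hypoxia response element (ACGTG) and an ETS core (AGGAAGT, which lies within the PU.1 letters). Capitals mark matches, and all 3 genes lie on the minus strand of GRCm38.p6, so that the windows chr9:123968693-123968942 for Ccr1, chr9:111057519-111057768 for Ccrl2 and chrX:101734148-101734397 for Cxcr3 are written in the direction of the gene.
Ccr1: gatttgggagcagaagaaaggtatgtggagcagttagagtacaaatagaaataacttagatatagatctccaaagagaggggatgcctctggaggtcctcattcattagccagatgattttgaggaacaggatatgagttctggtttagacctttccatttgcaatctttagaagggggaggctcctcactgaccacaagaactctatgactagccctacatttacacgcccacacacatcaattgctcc
Ccrl2: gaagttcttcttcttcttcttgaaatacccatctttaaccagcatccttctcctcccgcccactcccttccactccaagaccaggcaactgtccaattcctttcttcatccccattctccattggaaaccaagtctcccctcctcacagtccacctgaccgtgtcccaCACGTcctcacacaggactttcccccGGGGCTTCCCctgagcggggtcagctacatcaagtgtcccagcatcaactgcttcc
Cxcr3: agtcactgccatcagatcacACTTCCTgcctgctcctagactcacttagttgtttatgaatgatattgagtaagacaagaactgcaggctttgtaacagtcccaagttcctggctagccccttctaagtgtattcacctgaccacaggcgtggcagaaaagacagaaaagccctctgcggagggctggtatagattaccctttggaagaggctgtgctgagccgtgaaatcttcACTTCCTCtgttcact
The Ccr1 window held none of the 7 motifs, and neither did that of Cxcr4. The Ccrl2 window held the NF-kB letters as GGGGCTTCCC, beginning 56 bases upstream, and the hypoxia response letters on the opposite strand, 82 bases upstream. The Cxcr3 window held the PU.1 letters on the opposite strand 16 bases upstream and the ETS core at 16 and 230 bases. Of 32817 windows of this length, 4.11% held the NF-kB letters, 16.6% the hypoxia response letters, 2.44% the PU.1 letters and 7.69% the ETS core; the other motifs were in 6.75% (AP-1), 9.57% (C/EBP) and 2.97% (interferon response). These are matches of letters, and no binding was measured.

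Ccr7 is the receptor of Ccl19 and Ccl21 and brings mature dendritic cells and T cells to lymph nodes. Its level was 7.32%, 9.93% and 4.29% in sham, 22.3%, 23.3% and 53.6% in MCAO and 53.9%, 21.2% and 24.6% in VEGF. Every ischaemic array was above every sham array, and in each ischaemic group a single array was more than double the other two. Ccr7 was 2.16 ± 0.49 log2 units above sham in MCAO and 2.17 ± 0.49 in VEGF, and did not pass in either (limma, adjusted p = 0.0604 and 0.0645). It passed with the array pair left out, at 2.38 (adjusted p = 0.0168) in MCAO and 1.75 (adjusted p = 0.0438) in VEGF. In MCAO it also passed without VEGF array 1 (limma, adjusted p = 0.0246), although that array is in neither group compared, and in VEGF it passed without MCAO array 1 (adjusted p = 0.0407).

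Ccrl2 is carried by neutrophils, macrophages, activated microglia and endothelium, and presents chemerin to cells that carry the chemerin receptor Cmklr1. Its level was 17.0%, 9.85% and 9.70% in sham, 45.5%, 14.5% and 26.5% in MCAO and 34.4%, 14.9% and 20.1% in VEGF. In each group array 1 was the highest, and the second array of both ischaemic groups lay below sham array 1. The differences from sham were 1.14 ± 0.47 log2 units in MCAO (limma, adjusted p = 0.213) and 0.89 ± 0.47 in VEGF (limma, adjusted p = 0.274). Without the array pair they were 0.74 (adjusted p = 0.18) and 0.56 (adjusted p = 0.305).

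Cxcr4 holds neutrophils and stem cells in the bone marrow and guides leukocytes and new vessels toward Cxcl12. Its level was 4.70%, 4.32% and 5.0% in sham, 37.5%, 12.9% and 10.2% in MCAO and 57.0%, 17.1% and 7.80% in VEGF. All ischaemic arrays were above sham, with MCAO array 1 and VEGF array 1 well above the other 4. Endothelial markers, listed above, were highest on the same arrays, and their part in the Cxcr4 level was not tested. The differences were 1.87 ± 0.71 log2 units in MCAO and 2.08 ± 0.71 in VEGF, the largest standard errors among the 6 genes, and did not pass (limma, adjusted p = 0.189 and 0.148). Without the pair the differences were smaller, 1.30 and 1.31, and passed (limma, adjusted p = 0.0361 and 0.0394).

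Cxcr3 is the receptor of the interferon-induced chemokines Cxcl9, Cxcl10 and Cxcl11. Its level was 4.66%, 4.39% and 5.07% in sham, 7.72%, 6.21% and 8.19% in MCAO and 7.68%, 7.10% and 4.58% in VEGF. The MCAO arrays lay above all sham arrays, and VEGF array 3 lay within the sham range. For MCAO array 1 this holds only after scaling by its low 75th percentile. Its unscaled signal was 61.5, and that of VEGF array 1 was 55.5, against 58.2, 58.8 and 67.9 in sham. The differences were 0.64 ± 0.24 log2 units in MCAO (limma, adjusted p = 0.180) and 0.42 ± 0.24 in VEGF (limma, adjusted p = 0.298), the smallest of the 6. Without VEGF array 3 the VEGF difference was 0.65 (limma, adjusted p = 0.144). Without the pair they were 0.60 (adjusted p = 0.102) and 0.28 (adjusted p = 0.413).

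In MCAO against sham, 2 of the 6 receptors were called higher and 0 lower, where 2.28% of all genes were called higher and 0.535% lower. Groups did not overlap, with MCAO higher, for 5 of the 6, all except Ccrl2, and for Cxcr3 only after scaling. The share over all genes was 19.6% higher and 20.7% lower. In VEGF against sham the same 2 were called, where 2.07% of all genes were called higher and 0.357% lower. Groups did not overlap for Ccr1, Ccr2, Ccr7 and Cxcr4, all with VEGF higher, where the share over all genes was 18.2%. The median difference of the 6 was 2.01 log2 units in MCAO and 2.12 in VEGF, and that of all genes tested was -0.04 and -0.12. With the array pair left out, 4 of the 6 were called higher and 0 lower in each comparison. In that fit 9.61% of all genes were called higher and 12.4% lower in MCAO, and 8.44% and 10.6% in VEGF. Both comparisons use the same sham arrays. Ccr1 and Ccr2, the receptors called in the main fit, passed the filter on dim probes only through the ischaemic groups. Their calls and lack of overlap thus rest on sham signal near background. Without that filter both were again called in each comparison, where 1.56% and 1.46% of all genes were called higher.

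**Figure D2:**
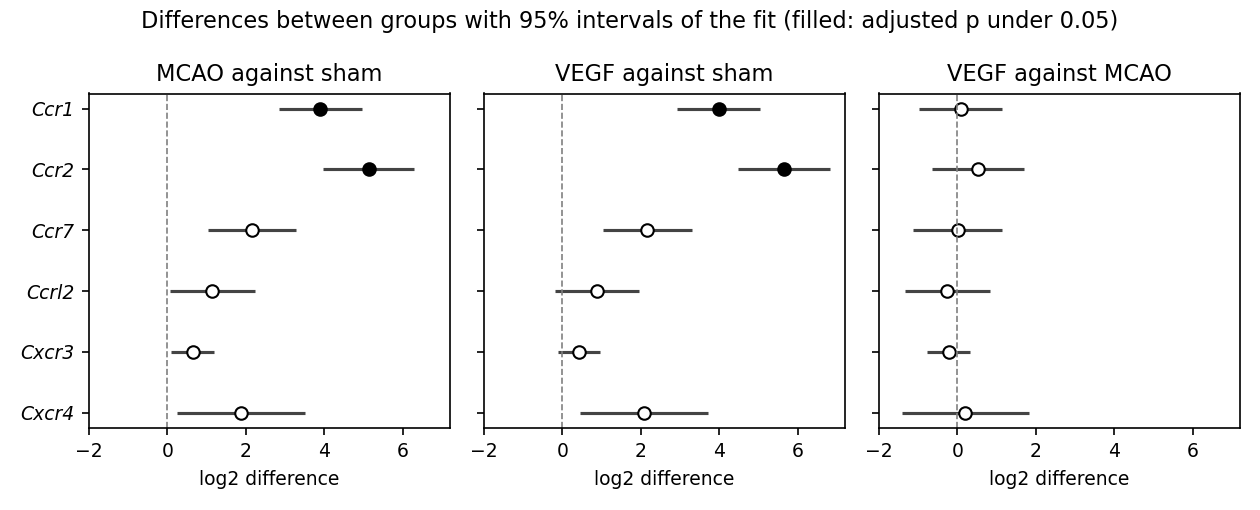
log2 difference of each receptor in the 3 comparisons, with the 95% interval of the limma fit; filled points have an adjusted p under 0.05. Ccr1 and Ccr2 are filled against sham in both ischaemic groups, and all 6 intervals of VEGF against MCAO include 0.

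VEGF and MCAO did not differ by the test for any of the 6 receptors (limma, all adjusted p = 1.00), and none had an unadjusted p under 0.05. The arrays of the groups overlapped for all 6, where over all genes 2.33% did not overlap with VEGF higher and 3.48% with VEGF lower. Over all genes 0% were called higher and 0.00649% lower in VEGF, while 856 of 30837 had an unadjusted p under 0.05. The intervals show how large a difference the 3 arrays per group leave room for. For Ccr2 the difference was 0.53 log2 units (95% interval -0.64 to 1.69), for Ccr1 0.08 (-0.97 to 1.14) and for Cxcr4 0.21 (-1.42 to 1.84). For Ccr7 it was 0.01 (-1.12 to 1.13), for Ccrl2 -0.26 (-1.33 to 0.82) and for Cxcr3 -0.22 (-0.76 to 0.33). Without VEGF array 3, the lowest of its group for Ccr2, the Ccr2 difference was 1.17 log2 units (limma, adjusted p = 1.00). That choice enlarges the difference, since VEGF array 2, the highest, is kept. VEGF arrays 1 to 3 lay 6.04, 6.55 and 4.37 log2 units above the sham mean, and MCAO arrays 1 to 3 lay 5.42, 4.81 and 5.15 above it. With the pair of arrays that stood apart left out, Ccr7 differed by -0.63 (adjusted p = 0.81), Cxcr4 by 0.01 (adjusted p = 0.996) and Ccr1 by -0.26 (adjusted p = 0.87). Same-numbered arrays of these groups deviated together, with correlations across genes of 0.587, 0.224 and 0.558. Arrays with different numbers correlated at -0.563 to 0.392, and MCAO array 2 correlated more with VEGF array 3 (0.392) than with VEGF array 2. With the number as a block in a fit of these groups alone, 0 of 6 receptors and 0 of 29775 genes were called (1154 with an unadjusted p under 0.05). The intervals were then -0.48 to 0.89 for Cxcr4 and -0.73 to 0.22 for Ccrl2, narrower than without the block. They were -0.90 to 1.95 for Ccr2, -1.36 to 1.37 for Ccr7 and -0.93 to 0.49 for Cxcr3, wider than without it, and -0.84 to 1.01 for Ccr1. A difference of 1 log2 unit either way lies inside the interval of Ccr7 and outside that of Cxcr3 in both fits. For Cxcr4 it lies inside without the block and outside with it.

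Genes whose profile was most like that of a receptor were found by the root mean square difference over the 9 arrays, each gene taken relative to its own sham mean, among 17588 genes with a symbol. Nearest to Ccr2 were Sirpb1a and Sirpb1c, both at 0.34 log2 units, and Gm5150 at 0.48. Ccr1 has no measured sham level, so its distances rest on the deposited sham signal. With that signal, nearest to Ccr1 were Stx11 at 0.23, a syntaxin of cytotoxic granule release, and Casp4 and Csf2rb, both at 0.29, the latter a receptor subunit for granulocyte-macrophage colony-stimulating factor. Ccr7 was nearest to C1s2 and Btk, both at 0.39, and Oit3 at 0.40. Ccrl2 was nearest to Tex14 and Traf1, both at 0.21, and Nepro at 0.28. Cxcr3 was nearest to Mitd1 at 0.15 and to Krtcap3 and Ccdc84 at 0.17. Cxcr4 was nearest to Fxyd5 at 0.19, Ptgis at 0.20 and Nos3, the endothelial nitric oxide synthase, at 0.21. Among the receptors themselves the closest pair was Ccrl2 and Cxcr3 at 0.63, and Ccr1 and Ccr2, with the same limit, differed by 1.35.

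Of 15 ligands of the 6 receptors, 12 had a probe, and 8 were called higher and 0 lower in each ischaemic group against sham, with a median difference of 4.94 log2 units in MCAO and 4.88 in VEGF. The ligands of Ccr2 were among them: Ccl2 rose by 8.49 ± 0.63 log2 units in MCAO and 8.72 ± 0.63 in VEGF, Ccl7 by 6.58 ± 0.67 and 6.81 ± 0.67, and Ccl12 by 5.44 ± 0.38 and 5.41 ± 0.38 (limma, adjusted p from 0.000475 to 0.00241). On the sham arrays Ccl2 was at 5.31%, 5.25% and 4.31% of the 75th percentile, and its lowest ischaemic value was 905%, on VEGF array 2. The ligands of Ccr1 rose as well, Ccl3 by 7.60 ± 0.47 and 6.84 ± 0.47, Ccl5 by 6.83 ± 0.86 and 5.76 ± 0.86, Ccl9 by 4.72 ± 0.59 and 4.35 ± 0.59, and Ccl6 by 3.92 ± 0.60 and 4.26 ± 0.60 (limma, adjusted p from 0.000266 to 0.0145).

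Of the Cxcr3 ligands measured, Cxcl10 was called and Cxcl9 was not. Cxcl10 rose by 5.16 ± 0.70 log2 units in MCAO and 5.50 ± 0.70 in VEGF (limma, adjusted p = 0.00887 and 0.00772), whereas Cxcl9 differed by 1.16 ± 0.57 and 1.04 ± 0.57 and did not pass. Cxcl12, the ligand of Cxcr4, was taken by the brighter of its 2 probes and was at 637%, 866% and 955% in sham, 1045%, 333% and 330% in MCAO and 1019%, 409% and 295% in VEGF. Its first array was the highest in both ischaemic groups, and the other 4 ischaemic arrays were below all sham arrays. Cxcl12 differed by -0.73 ± 0.56 and -0.70 ± 0.56 (limma, adjusted p = 0.462 and 0.445). With the pair left out it fell by 1.28 ± 0.22 in MCAO and by 1.22 ± 0.22 in VEGF (limma, adjusted p = 0.0131 and 0.0183). Ccl19, a ligand of Ccr7, differed by -0.07 ± 0.23 and 0.08 ± 0.23, and Rarres2, which encodes the chemerin bound by Ccrl2, by 0.40 ± 0.37 and 0.52 ± 0.37, and neither passed. With the array pair left out, 8 ligands were called higher and 1, Cxcl12, lower in each comparison. Of all genes, 9.61% were then called higher and 12.4% lower in MCAO, and 8.44% and 10.6% in VEGF. No ligand passed between VEGF and MCAO.

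**Figure D3:**
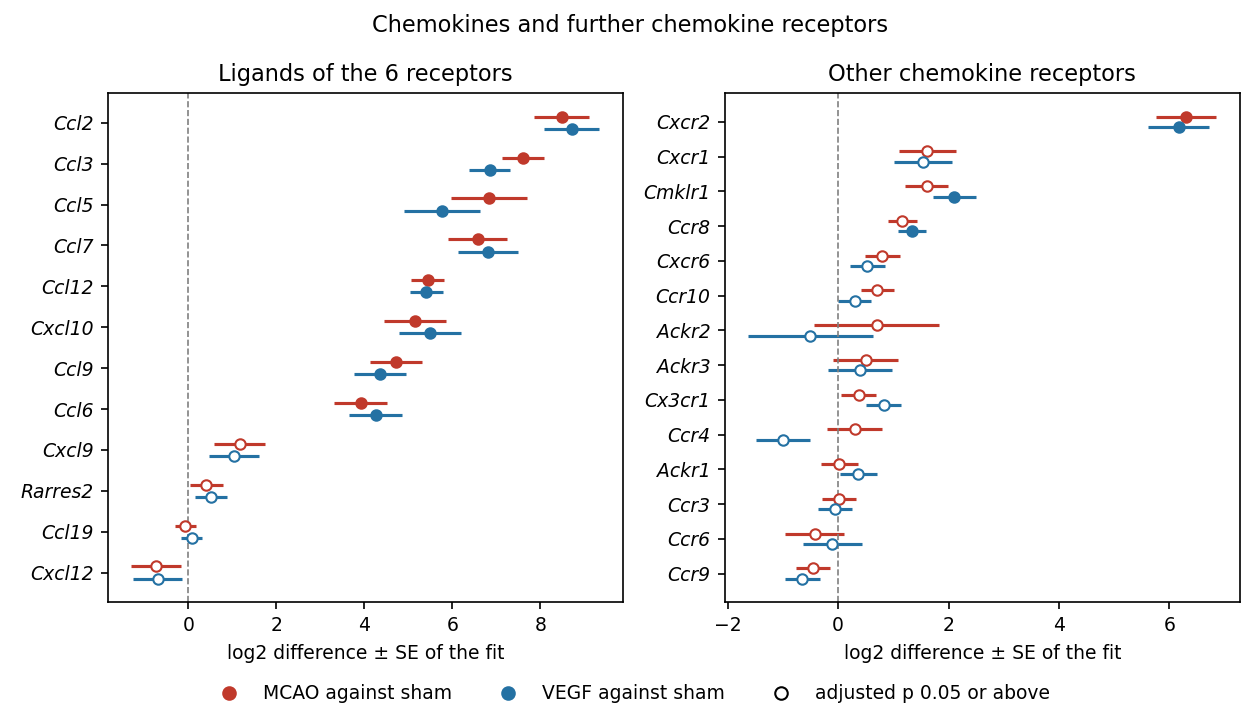
log2 difference ± standard error of the limma fit for 12 ligands of the 6 receptors and 14 of the 15 other chemokine receptors tested, in MCAO and VEGF against sham; filled points have an adjusted p under 0.05. The 8 ligands at the top are filled in both comparisons, while among the other receptors shown Cxcr2 is filled in both and Cmklr1 and Ccr8 in VEGF against sham.

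Of 18 other chemokine and chemerin receptors, 15 were tested, and 1 was called higher in MCAO and 3 in VEGF, with 0 lower. Cxcr2, through which neutrophils are recruited, was called in MCAO and VEGF (limma, adjusted p = 0.00127 and 0.0014). It was well above background on none of the sham arrays. Against the dimmest signal well above background there, its mean was 24.5-fold higher in MCAO and 22.4-fold higher in VEGF. In VEGF against sham Cmklr1 also passed (limma, adjusted p = 0.0293), with a mean 3.24-fold above the same dimmest signal. It too was well above background on none of the sham arrays, so its call rests on sham signal near background. Ccr8 passed as well, 1.34 ± 0.26 log2 units higher (limma, adjusted p = 0.0366). In MCAO Cmklr1 and Ccr8 had adjusted p of 0.0686 and 0.0551 in limma, and neither passed between VEGF and MCAO. Without the array pair, 4 of the 15 were called higher in MCAO and 5 in VEGF, and 1 lower in each. Calls rose over all genes as well, to 9.61% higher and 12.4% lower in MCAO, and 8.44% and 10.6% in VEGF.

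Of 20 genes of receptor signalling, from inhibitory G proteins to arrestins and actin regulators, 3 were called higher and 0 lower in each ischaemic group. Rgs1, which shortens G protein signals in leukocytes, rose by 6.02 ± 0.89 log2 units in MCAO and 5.20 ± 0.89 in VEGF (limma, adjusted p = 0.0123 and 0.0218), with 1 of 3 sham arrays well above background. Rac2, the Rac GTPase of blood cells, rose by 3.00 ± 0.42 and 2.91 ± 0.42, and its exchange factor Vav1 by 2.80 ± 0.47 and 2.79 ± 0.47 (limma, adjusted p from 0.00961 to 0.0208). The median of the list was 0.36 in MCAO and 0.68 in VEGF. Without the array pair 8 were called higher and 1 lower in MCAO, and 7 higher in VEGF. The shares over all genes were then 9.61% higher and 12.4% lower in MCAO, and 8.44% and 10.6% in VEGF.

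Some markers of white blood cells were called higher in the comparisons that called Ccr1 and Ccr2. Of 6 common leukocyte markers 4 were called higher in MCAO and 3 in VEGF, among them Ptprc (CD45), at 1.78 ± 0.36 and 1.91 ± 0.36 log2 units (limma, adjusted p = 0.0382 and 0.0317). Of 11 monocyte and macrophage markers tested 6 were called higher in each comparison, including Cd14, at 5.46 ± 0.80 and 4.97 ± 0.80, and of 12 neutrophil markers 5 were. Leaving out the array pair, 6 common, 8 monocyte and macrophage and 6 neutrophil markers were called higher in MCAO, and 5, 7 and 5 in VEGF, with 0 lower. That fit called 9.61% of all genes higher and 12.4% lower in MCAO, and 8.44% and 10.6% in VEGF. Ly6g was not matched to a probe. The summed level of the common markers was 252% to 291% of the 75th percentile in sham and 1406% to 3676% in the ischaemic groups. For the neutrophil markers it was 8481% to 10689% in sham and 10436% to 25197% in the ischaemic groups, a sum in which the bright Csf3r probe (0.19 ± 0.29 and -0.17 ± 0.29 log2 units, not called) weighs most in sham. For the monocyte and macrophage markers the sum was 42763% to 45514% in sham and 43214% to 90029% in the ischaemic groups, with ranges that overlap. The bright F10 probe weighs most in that sum. Its mean lay 8.59 log2 units above the 75th percentile in sham, 8.64 in MCAO and 8.97 in VEGF. The median difference of the monocyte and macrophage markers from sham was 2.40 log2 units in MCAO and 2.58 in VEGF. The part of these cells in the receptors' levels was not tested.

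Ccr7 and Cxcr3 are known from lymphocytes. Of 11 T cell markers 1 was called higher in each comparison, Cd3d, at 2.26 ± 0.29 and 2.03 ± 0.29, while Cd3e differed by -0.11 ± 0.19 and 0.33 ± 0.19 and did not pass. Of 7 natural killer cell markers 1 passed, and Ncr1 was not well above background on all arrays of any group. None of 7 B cell markers passed in either comparison against sham (limma). Of 10 dendritic cell markers 1 was called higher in MCAO and 0 in VEGF. Over all genes, the fit without the array pair called 9.61% higher and 12.4% lower in MCAO, and 8.44% and 10.6% in VEGF. Without the array pair, in MCAO, 3 of 12 T cell, 2 of 7 natural killer cell, 1 of 7 B cell and 3 of 10 dendritic cell markers were called higher and 1 of each list lower. In VEGF 2 T cell, 2 natural killer cell, 1 B cell and 1 dendritic cell marker were called higher, and 1 lower in each of these lists except that of dendritic cells, with 0. The summed level of the T cell markers was 877% to 1124% in sham and 929% to 1242% in the ischaemic groups. Among 11 microglia markers 0 were called higher and 2 lower in each comparison, among them P2ry12, which fell by 2.67 ± 0.20 log2 units in MCAO and by 2.31 ± 0.20 in VEGF (limma, adjusted p = 0.00061 and 0.00122). Leaving out the pair, 1 microglia marker was called higher and 4 lower in MCAO, and 1 higher and 3 lower in VEGF.

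**Figure D4:**
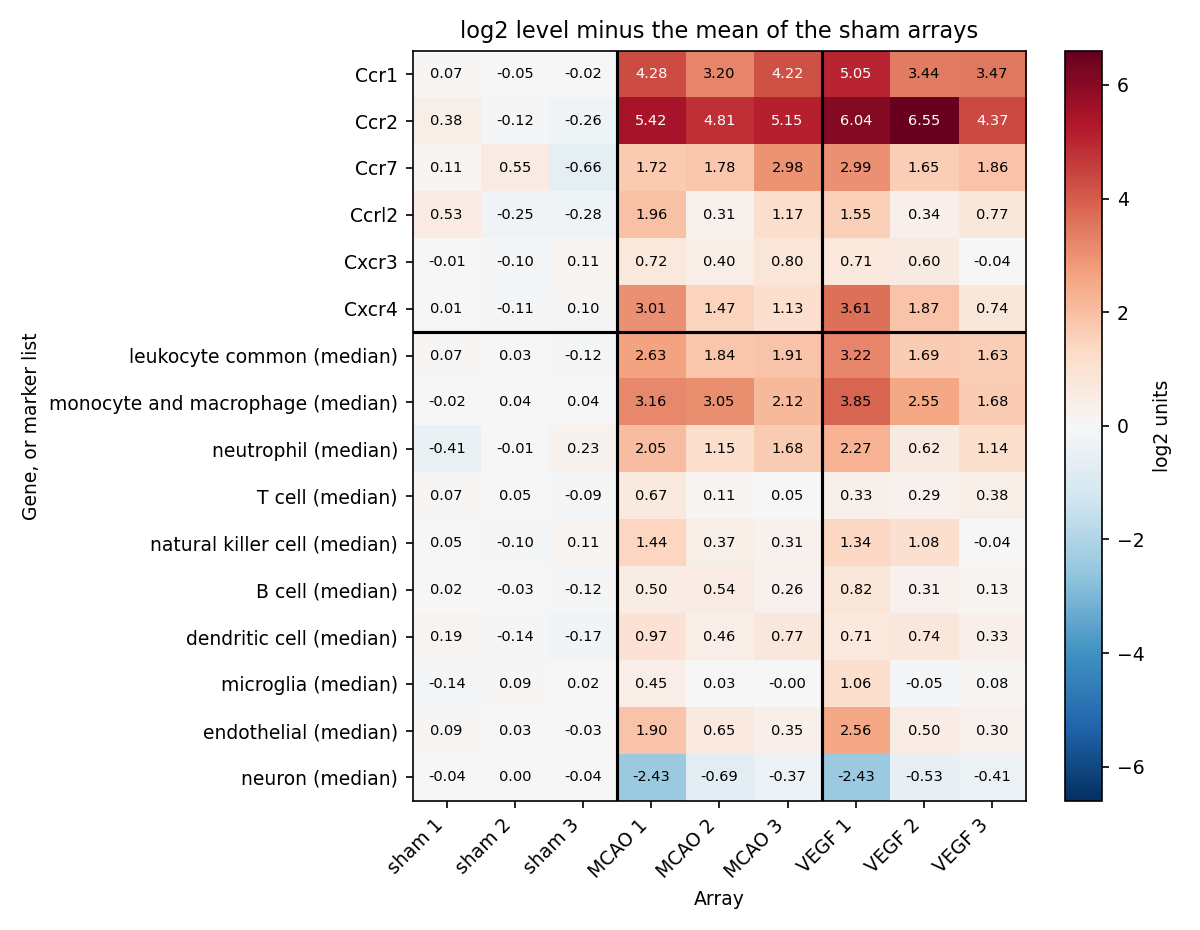
log2 level of each receptor, and median of each marker list, on every array minus the mean of the sham arrays. MCAO 1 and VEGF 1 have the highest values of Cxcr4 and Ccrl2 in their groups together with the highest endothelial and the lowest neuron medians (-2.43), and Ccr2 is highest on VEGF 2 (6.55). The sham mean of Ccr1 is a signal not well above background, so its values are no measured distance from sham.

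Across arrays, the median of the 6 receptors against sham was 2.48 and 3.30 on the pair that stood apart, MCAO array 1 and VEGF array 1, and 1.32 to 2.08 on the other ischaemic arrays. The common leukocyte markers were also highest on that pair, at 2.63 and 3.22 against 1.63 to 1.91. Single receptors were not all highest there: Ccr2 was highest on VEGF array 2, at 6.55 log2 units above the sham mean, and Ccr7 was as high on MCAO array 3, at 2.98, as on VEGF array 1, at 2.99. Cxcr3 had its highest value, 0.80, on MCAO array 3.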

How the data were processed

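Total RNA of 9 mouse brains was hybridised to 9 one-colour Agilent arrays; the labels say the mice differed. The deposited scanner files hold intensity values: per the file headers and the submitters' processing notes, Agilent's Feature Extraction (10.7.1.1) subtracted background, divided by a spatial trend (deposited per spot as a ratio; not for MCAO array 1, scanned on another day) and put a surrogate for values near background. The authors' value table was read as log2 values, with its scale unstated; it served as an alternative only.

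The processed intensity was taken to log2 and each array set relative to the 75th percentile of its 55681 probes that are not controls. A probe was kept where some group had it well above background on 3 of 3 arrays, and the brightest stood for a gene. limma 3.58.1 (R 4.3.3) fitted all 9 arrays together, without covariates, with Benjamini-Hochberg adjustment at 0.05. The number of arrays limits the precision. The N-fold values set the bright group's mean against the lowest signal well above background on each array of the dim group. Left out there were 13 probes whose deposited signal differed over 2-fold from a recomputed one. A probe that is not well above background can exceed that lowest signal, so the values are no strict lower bounds. The fit was tested on simulated data.

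The 6 genes and all lists were chosen with earlier results of these data known. Named are all 6, the 4 largest called genes of each pathway list with every called ligand, the 3 nearest profiles and set cell markers, of which 1 is not reported here; genes called only in VEGF, the uncalled ligands and Cd3d were chosen after their values were seen. Symbols and promoters came from RefSeq tables (GRCm38.p6). Ccl21a, Ccl21b and Cxcl11 were not matched to a probe. Same-numbered MCAO and VEGF arrays were treated as pairs in an alternative fit of those groups, because all 3 correlations exceeded 0.1. Not all same-numbered correlations with sham arrays did. The numbers are those of the sample titles, and whether they mark paired animals was not tested. Alternatives covered normalization, background, filters, weights, blocks and arrays left out.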

Additional observations from a re-analysis of the deposited data

How the results depend on the processing

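The calls against sham rested most on background correction and on how the array pair was weighted. Against 2 receptors called in each comparison with sham, normexp left 1 in each, and leaving out MCAO array 1 and VEGF array 1 gave 4 in each. Array weights gave 5 in MCAO and 5 in VEGF, where 23.4% and 17.2% of all genes were called higher. Weights set gene by gene, added after the data were seen because the first did not converge, gave 5 and 4. With these, 16.4% and 10.3% of all genes were called higher. In VEGF against MCAO array weights called 1, Ccr2, at 1.54 log2 units (limma, adjusted p = 0.00307). They also called 13.7% of all genes higher and 13.5% lower there, with a weight of 57.6 for MCAO array 2 and of 0.0782 for MCAO array 1. Gene-by-gene weights called 0 receptors between VEGF and MCAO. Leaving out 1 array at a time gave 2 to 3 receptors in MCAO against sham, 2 to 3 in VEGF against sham and 0 to 0 between VEGF and MCAO. Quantile normalization, the authors' table, the recomputed signal, other filters and probe rules, and age as a covariate changed none of these counts of receptors. With the replicate number as a block, 3 receptors were called in MCAO against sham, Ccrl2 being added (adjusted p = 0.0465), 2 in VEGF against sham and 0 between them; this block pairs sham arrays by a number they only share. In MCAO against sham fitted on those groups alone, Ccr7 was added (adjusted p = 0.0448). No called receptor changed direction.

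The number of genes called moved far more: 868 in MCAO against sham became 191 without sham array 1, 2534 without VEGF array 1 and 6912 without the array pair, where calls of higher genes went from 703 to 3014 and of lower genes from 165 to 3898, so that the higher share of calls went from 81.0% to 43.6%. In VEGF against sham 748 became 157 without sham array 1, 3196 without MCAO array 1 and 5969 without the pair, where higher calls went from 638 to 2647 and lower calls from 110 to 3322, and the higher share from 85.3% to 44.3%. The cause was not tested. Signal near background limits the size given for Ccr1 and Ccr2, whose sham spots were not well above background on 3 and 2 of 3 arrays.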
